A study of Rattus norvegicus with 8 samples.

Results

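Kinesins are the motor proteins that use ATP to move along microtubules or to shorten them, and the rows studied here are those whose symbol begins with Kif or Kifc followed by a number. They are 42 of the 32883 genes of the table. By a division that came with the choice of genes, 12 of them (Kif2c, Kif4a, Kif11, Kif14, Kif15, Kif18a, Kif18b, Kif20a, Kif20b, Kif22, Kif23 and Kifc1) act on the spindle, the chromosomes or the dividing cell's midbody and are called mitotic here, and 30 are called other. The other rows include Kif1bp, which has a matching symbol but encodes a protein that binds kinesins and is no motor. RNA was sequenced from primary oligodendrocyte precursor cells (OPCs), the glial cells that divide and go on to make myelin, in 4 libraries from male and 4 from female Sprague Dawley rats. The cells were grown out of the cerebral cortex of animals aged 1 to 2 days as mixed glia in serum, picked up as the cells that float, and then grown on coated plates for 4 to 5 days in Neurobasal medium with glutamine, antibiotics, B27 supplement and the growth factors PDGF and FGF, each at 10 ng/ml. No genetic change or drug is named for either sex, and nothing says whether libraries of one sex came from separate animals or litters, so p-values measure the spread between these libraries, which may be technical.

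During mitosis kinesins push the spindle poles apart, move chromosomes, trim microtubule ends and build the midzone where the cell is cut, and their genes are switched on late in the cell cycle. Outside mitosis other kinesins carry vesicles, mitochondria, RNA granules and ciliary cargo towards the ends of microtubules. OPCs use both sets, since they divide and also extend long processes, and in zebrafish the motor gene kif1b is needed to carry myelin basic protein mRNA along the processes of myelinating cells.

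Values are the authors' FPKM, fragments scaled by transcript length and by the size of the library, which can be compared between genes. The number of fragments behind a value is unknown, and depth relative to male 1 ran from 0.553 to 1 in male and from 0.303 to 0.980 in female libraries. A difference is the male mean minus the female mean of log2(FPKM + 1), given with its standard error (SE), and understates the change of low genes. All come from 1 limma-trend fit to the 11263 genes that averaged 1 FPKM or more, and a gene is called when its Benjamini-Hochberg adjusted p over all of these is under 0.05. Male 1 and female 3 departed from their own sexes alike, since their deviations correlated at 0.242 over the tested genes. They were also the deepest library of each sex, at a relative depth of 1 and 0.980 where the others reached at most 0.769, and results are also given without them where a call moves. OPC markers stood at high levels in both sexes, with Pdgfra at 229 ± 10.4 FPKM in male and 303 ± 27.8 FPKM in female cultures (SD, n = 4 each), while the microglial marker Aif1 stood at 2.68 ± 0.948 and 8.57 ± 2.55 FPKM. Fibroblast and vascular markers summed to at most 0.195 FPKM in a male and 0.212 FPKM in a female library, with Cldn5, Dcn and Col1a2 at 0 in every one.

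All 12 mitotic kinesins passed the filter on low values, and each had a positive difference, with a median of 0.30 against -0.0038 over all tested genes. Of the 12, Kif22 and Kifc1 were higher in male cultures by the test and none was lower, while 10 had an unadjusted p under 0.05. Among all tested genes 6.04% were called, 3.14% as higher in male cultures, 49.3% had a positive difference, and 21.2% had an unadjusted p under 0.05. For 8 of the 12 every male library lay above every female one, against 7.26% of all tested genes. The genes and the division were chosen with earlier results of these data known, in which genes of mitosis already lay towards male cultures, so the counts describe the members and are no independent support. In bulk RNA, fewer cells of a type and less RNA per cell cannot be told apart.

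**Figure D1:**
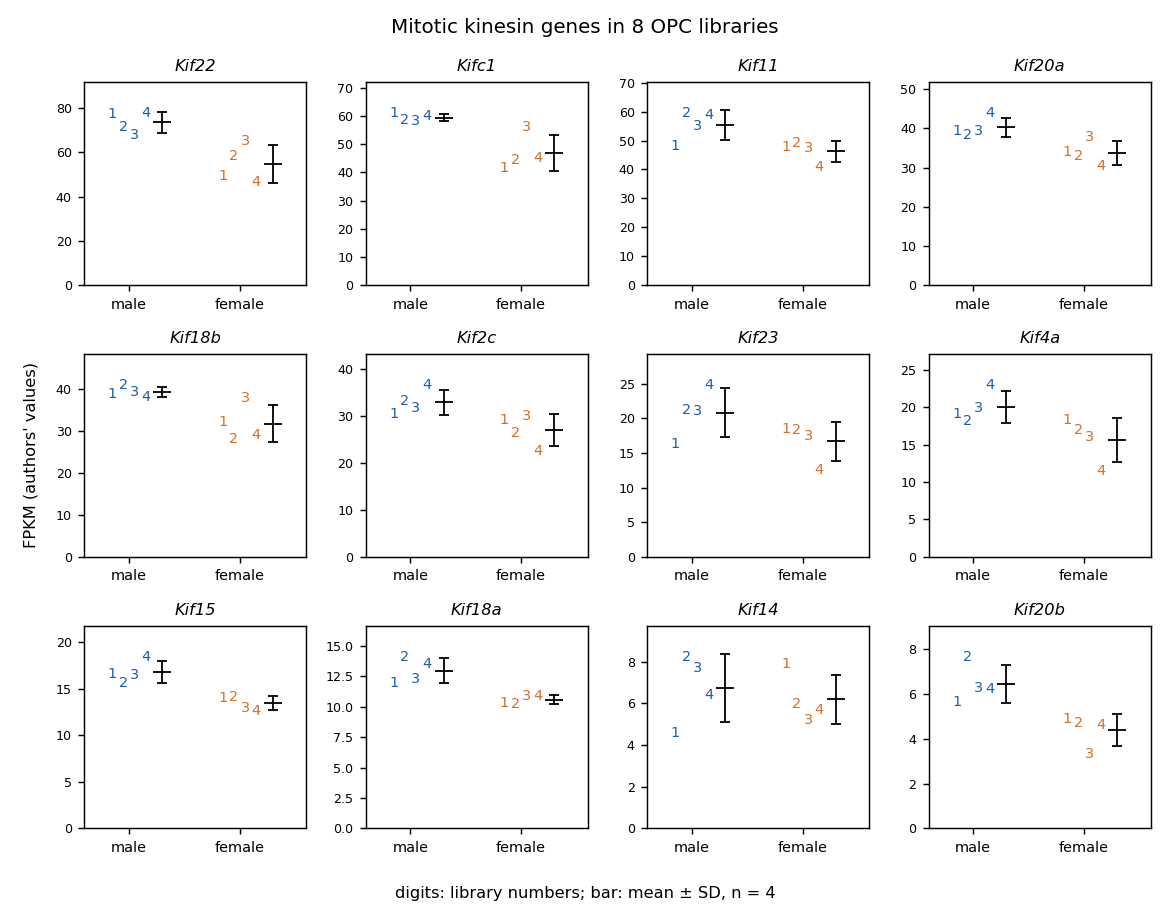
FPKM of the 12 mitotic kinesin genes, 1 panel per gene with its own axis from 0, in male (left) and female (right) libraries; digits are library numbers and bars the mean ± SD of 4. Kif22 reads 67.9 to 77.7 in male and 46.7 to 65.1 in female libraries, and the sexes overlap in Kif11, Kif14, Kif23 and Kif4a.

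The first group acts on chromosomes and holds the mitotic kinesin with the highest level. Kif22 (ENSRNOG00000020281) encodes a chromokinesin that binds DNA and pushes chromosome arms away from the poles. It stood at 77.5, 71.2, 67.9 and 77.7 FPKM in male 1 to male 4, against 49.2, 58.2, 65.1 and 46.7 FPKM in female 1 to female 4. The ranges did not overlap, and female 3 came nearest to the male libraries. The means were 73.6 ± 4.80 and 54.8 ± 8.45 FPKM (SD, n = 4 each), a ratio of 1.34, and the difference of 0.43 ± 0.10 (SE) was called (limma-trend adjusted p = 0.0354). Kif22 lost that call when any library other than female 3 was left out, with adjusted p up to 0.104, and also when relative depth entered the fit (0.110). Kif4a (ENSRNOG00000038035), the other chromokinesin, which compacts chromosomes and organises the central spindle, lies on the X chromosome in RefSeq. It stood at 19.04, 18.1, 19.9 and 23.0 FPKM in male cultures, against 18.3, 16.9, 15.96 and 11.5 FPKM in female ones. The sexes overlapped, since male 2 read below female 1, and the difference of 0.35 ± 0.14 was not called (adjusted p = 0.173). Without female 4 the Kif4a difference was 0.22. Kif2c (ENSRNOG00000019100), whose product takes microtubules apart at centromeres and so frees wrongly attached chromosomes, stood at 30.3, 33.0, 31.6 and 36.5 FPKM in male and 29.1, 26.2, 30.0 and 22.6 FPKM in female cultures. Female 3 lay just under male 1, and the difference of 0.28 ± 0.10 was not called (adjusted p = 0.144).

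Motors that shape the spindle formed the second group. Kifc1 (ENSRNOG00000000479) walks towards the minus ends of microtubules and gathers them at the spindle poles. It stood at 61.0, 58.6, 58.1 and 60.2 FPKM in the male libraries, against 41.7, 44.6, 56.2 and 45.0 FPKM in the female ones. The male values lay within 3 FPKM of each other, and female 3 stood 11.2 FPKM above the next female library and 1.92 FPKM under the lowest male one. The difference of 0.35 ± 0.09 was called (limma-trend adjusted p = 0.0481), and as for Kif22 the call was lost when any library other than female 3 was left out, with adjusted p up to 0.130, and likewise with relative depth in the fit (0.113). Kif11 (ENSRNOG00000056069) slides antiparallel microtubules to keep the poles apart. Its values were 48.2, 59.5, 55.1 and 58.8 FPKM in male and 47.7, 49.1, 47.3 and 40.9 FPKM in female libraries. Male 1 read below female 2, and the difference of 0.25 ± 0.09 was not called with all libraries (adjusted p = 0.126) but was without male 1 (0.0462). Kif15 (ENSRNOG00000060356), a partner of Kif11 in keeping the spindle bipolar, read 16.6, 15.6, 16.5 and 18.5 FPKM in male against 14.04, 14.1, 12.98 and 12.7 FPKM in female cultures. The sexes did not overlap, and the adjusted p was 0.0864. Kif18a and Kif18b encode motors that limit the length of microtubules at kinetochores and at the cell edge. Kif18a (ENSRNOG00000005037) read 11.9 to 14.1 FPKM in male and 10.2 to 10.9 FPKM in female libraries, with a difference of 0.27 ± 0.10 (adjusted p = 0.141). Kif18b (ENSRNOG00000021713) read 38.9, 41.0, 39.2 and 38.0 FPKM in male libraries, against 32.1, 28.0, 38.0 and 29.0 FPKM in female ones, where female 3 lay 0.0758 FPKM under male 4. Its difference of 0.31 ± 0.10 was not called (adjusted p = 0.0933) and was without female 3 (0.0191).

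Motors of the midzone and of cytokinesis, the final cut between daughter cells, were the third group, and none of these genes was called. The share called among all tested genes was 6.04%, from which so small a group cannot be told apart. Kif20a (ENSRNOG00000024428) brings the chromosomal passenger complex to the midzone. It stood at 39.4, 38.4, 39.5 and 43.9 FPKM in male and 34.0, 33.0, 37.7 and 30.4 FPKM in female libraries, without overlap (difference 0.25 ± 0.08, adjusted p = 0.114). Kif20b (ENSRNOG00000018929), which acts late in cytokinesis, had the lowest mean level and the largest difference of the 12. Its values were 5.62, 7.65, 6.26 and 6.20 FPKM in male against 4.88, 4.68, 3.33 and 4.58 FPKM in female cultures, a ratio of means of 1.47. The difference was 0.47 ± 0.15 (adjusted p = 0.0888), and it was called when relative depth entered the fit (adjusted p = 0.0439). Kif23 (ENSRNOG00000014080), the motor of the centralspindlin complex, read 16.3, 21.2, 21.1 and 24.8 FPKM in male and 18.5, 18.3, 17.5 and 12.5 FPKM in female libraries. Male 1 lay below 3 of the female libraries, and the difference of 0.31 ± 0.15 (adjusted p = 0.268) came to 0.18 without female 4. Kif14 (ENSRNOG00000037211), which binds the midzone protein Prc1 and citron kinase, read 4.60, 8.25, 7.71 and 6.41 FPKM in male and 7.91, 5.99, 5.20 and 5.68 FPKM in female cultures. Male 1 was the lowest of all 8 libraries here, the sexes overlapped widely, and the difference was 0.093 ± 0.18 (adjusted p = 0.826).

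Of the 12 genes, 11 lay to the male side by at least 0.25 on the log2 scale. The DNA around the start sites of these genes was examined for 2 elements that late cell cycle genes are known to carry in human and mouse. Whether such elements bear on the difference between the sexes was not tested. One is the cell cycle genes homology region (CHR, here the letters TTTGAA only) and the other is the CCAAT box. Both were searched on both strands, and neither holds the other's letters. Other spellings of either element were not searched, so the counts below hold for these letters only. Windows ran from 250 bases before to 20 bases after the start in the RefSeq promoter table of build GRCr8, which held 32 of the 42 genes, 11 mitotic and 21 other. The build behind the FPKM table is not given in the sources used here. Both elements stood in 5 of the 11 mitotic genes, Kif22, Kifc1, Kif20b, Kif23 and Kif4a, which are shown for that reason with either element in capitals (also as its reverse complement, TTCAAA or ATTGG), 5' to 3' along the gene.
Kif22 (chr1:191080859-191081128, strand -): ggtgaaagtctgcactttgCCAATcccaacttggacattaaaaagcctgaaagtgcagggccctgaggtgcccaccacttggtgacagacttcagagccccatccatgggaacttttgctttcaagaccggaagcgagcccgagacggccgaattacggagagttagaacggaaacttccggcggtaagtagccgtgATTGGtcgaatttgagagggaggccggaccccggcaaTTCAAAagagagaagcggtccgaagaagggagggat
Kifc1 (chr20:5000679-5000948, strand +): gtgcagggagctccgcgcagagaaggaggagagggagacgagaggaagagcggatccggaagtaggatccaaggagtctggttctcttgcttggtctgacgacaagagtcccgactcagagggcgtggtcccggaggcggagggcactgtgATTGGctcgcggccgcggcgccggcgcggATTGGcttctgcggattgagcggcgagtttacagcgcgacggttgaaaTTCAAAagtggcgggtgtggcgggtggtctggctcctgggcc
Kif20b (chr1:241840766-241841035, strand +): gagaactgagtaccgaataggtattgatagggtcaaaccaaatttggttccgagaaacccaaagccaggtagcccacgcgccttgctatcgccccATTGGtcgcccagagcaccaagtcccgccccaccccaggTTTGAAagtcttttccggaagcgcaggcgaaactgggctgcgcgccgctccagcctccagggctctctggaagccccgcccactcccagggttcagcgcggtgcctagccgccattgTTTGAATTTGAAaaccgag
Kif23 (chr8:71320565-71320834, strand -): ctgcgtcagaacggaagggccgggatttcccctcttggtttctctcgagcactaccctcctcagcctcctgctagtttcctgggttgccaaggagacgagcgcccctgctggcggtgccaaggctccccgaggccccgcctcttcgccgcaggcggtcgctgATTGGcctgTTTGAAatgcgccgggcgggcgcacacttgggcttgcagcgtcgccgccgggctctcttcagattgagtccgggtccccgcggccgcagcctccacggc
Kif4a (chrX:69761633-69761902, strand +): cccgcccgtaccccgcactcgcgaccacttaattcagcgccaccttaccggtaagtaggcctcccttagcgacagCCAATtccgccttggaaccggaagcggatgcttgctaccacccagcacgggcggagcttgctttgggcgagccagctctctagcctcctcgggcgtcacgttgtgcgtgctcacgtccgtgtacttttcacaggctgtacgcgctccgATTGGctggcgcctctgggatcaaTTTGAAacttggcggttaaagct

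A CHR stood in 6 of the 11 mitotic genes (the sixth was Kif15, with 2 copies), in 2 of the 21 other genes and in 16.99% of all 33469 windows of the table. A CCAAT box stood in 7 mitotic genes, in 7 of the other genes and in 35.5% of all windows. Both elements stood in 1 of the other genes, Kif26b, and in 6.46% of all windows. In Kif22 the CHR began 16 bases before the start and the nearer CCAAT box 53 bases before it, and in Kifc1 they began at 22 and 70 bases. In Kif20b 2 copies of the CHR stood side by side just after the start and another copy 116 bases before it. Kif2c, Kif18a and Kif18b had neither set of letters in these windows, where other spellings were not searched. The differences were 0.31 to 0.47 for the 5 genes with both elements and 0.25 to 0.30 for the 3 with 1 kind (Kif11, Kif20a and Kif15). They were 0.27 to 0.31 for the 3 with neither, a range that overlapped both others. No test was made between these groups, which rest on the letters searched. Kif14, the mitotic gene without a window and with the smallest difference (0.093), is not in this comparison. A match of letters is a description of the window and not a site shown to be used.

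**Figure D2:**
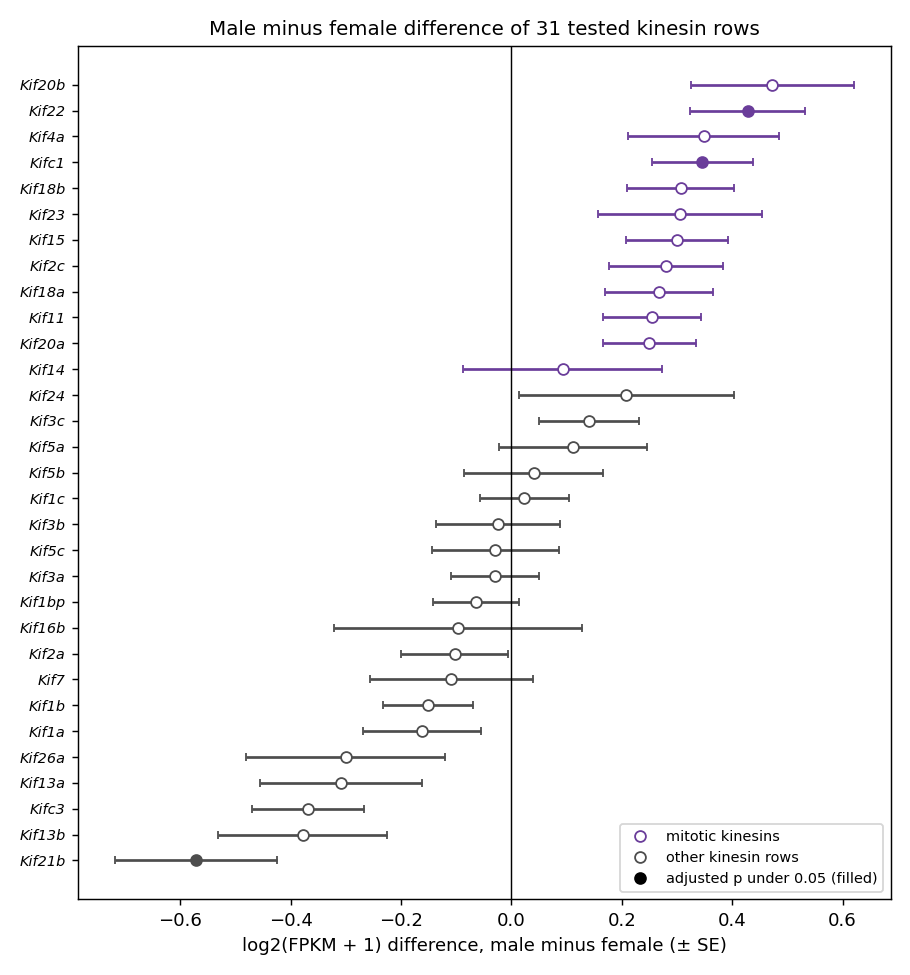
Difference between male and female cultures on the log2(FPKM + 1) scale for the 31 kinesin rows tested, with SE bars; filled points were called. The 12 mitotic genes lie at 0.093 to 0.47, and the 19 other rows at -0.57 to 0.21 with only Kif21b called.

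Of the 30 other rows 19 passed the filter on low values. Of these Kif21b was called, as lower in male cultures, and none was called as higher, with 2 more (Kifc3 and Kif13b, both towards female cultures) at an unadjusted p under 0.05, which 21.2% of all tested genes reached. Among all tested genes 2.89% were called as lower in male cultures. The median difference of the 19 was -0.097, 5 were positive and 14 negative, and the female libraries all lay above the male ones in 2 of them, Kif21b and Kifc3, against 6.77% of all tested genes. The 11 rows below the filter stood at means of 0 to 0.947 FPKM, with Kif12, Kif28p and Kif2b listed at 0 in every library.

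**Figure D3:**
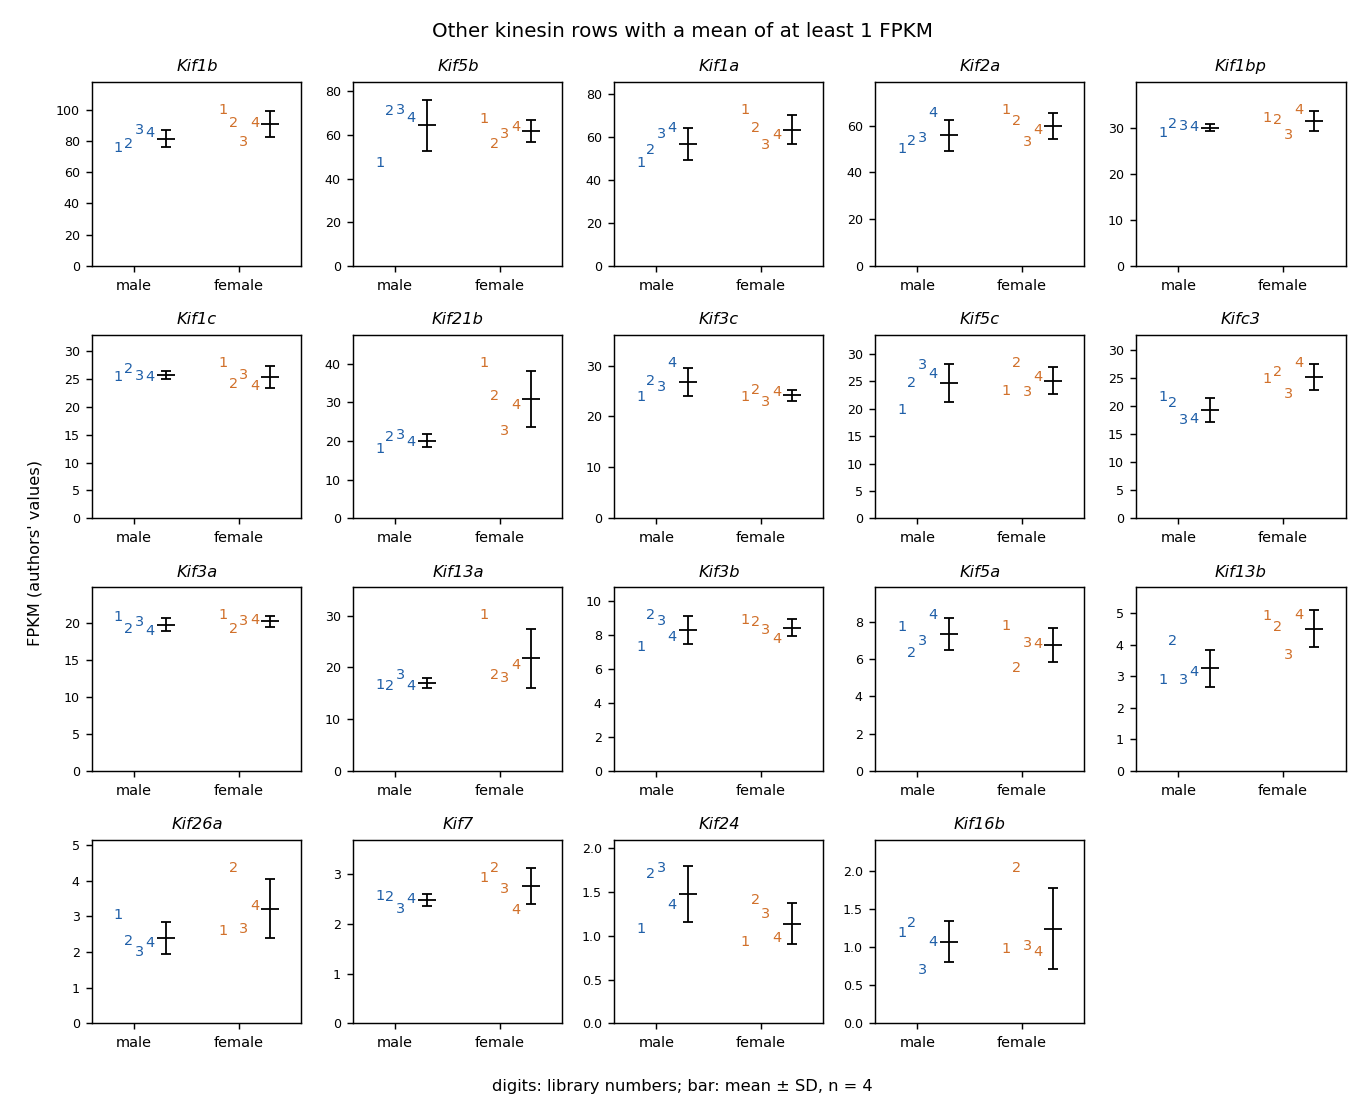
FPKM of the 19 other kinesin rows tested, 1 panel per row with its own axis from 0, ordered by mean level, male libraries on the left and female on the right; digits are library numbers and bars the mean ± SD of 4. Kif21b reads 17.95 to 21.6 in male and 22.6 to 40.2 in female libraries, and Kif5b is low in male 1.

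Kif21b (ENSRNOG00000008471) encodes a motor that pauses microtubule growth and is best known from the dendrites of neurons. It stood at 17.95, 21.0, 21.6 and 19.8 FPKM in male 1 to male 4, against 40.2, 31.5, 22.6 and 29.3 FPKM in female 1 to female 4. The male libraries lay close together, the female ones spread over a wide range, and female 3 stood 0.982 FPKM above the highest male library. The means were 20.1 ± 1.62 and 30.9 ± 7.26 FPKM (SD, n = 4 each), so that the female mean was 1.54 times the male one, and the difference was -0.57 ± 0.15 (limma-trend adjusted p = 0.0431). That call was lost on leaving out any library other than female 3 (adjusted p up to 0.104) and when relative depth entered the fit (0.0816). Its relative Kif21a, a growth regulator of the same kind, stood at only 0.376 to 1.17 FPKM in male and 0.488 to 0.906 FPKM in female cultures and was not tested. Kifc3 (ENSRNOG00000014087), a motor that walks towards minus ends and helps to anchor microtubules at cell junctions, read 21.5, 20.5, 17.5 and 17.6 FPKM in male and 24.7, 26.0, 22.2 and 27.7 FPKM in female libraries. The sexes did not overlap, but the difference of -0.37 ± 0.10 missed the threshold (adjusted p = 0.0597). Kifc3 was called without male 1 (0.0404) and without female 3 (0.0389).

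Vesicle carriers of the Kif1, Kif13 and Kif16 kind included the kinesin with the highest level. None of the 6 was called, against 6.04% of all tested genes, and so short a list cannot be told apart from that share. Kif1b (ENSRNOG00000057626), a carrier of mitochondria and vesicles, was the highest kinesin of all at 75.4, 78.2, 86.7 and 84.9 FPKM in male and 99.6, 91.6, 79.4 and 91.6 FPKM in female libraries. Female 3 read below male 3 and male 4, and the difference was -0.15 ± 0.08 (adjusted p = 0.323). Kif1a (ENSRNOG00000023993), which carries synaptic vesicle precursors in neurons, ranged over 47.8 to 64.3 FPKM in male and 56.3 to 72.6 FPKM in female cultures (adjusted p = 0.428). Kif1c, a carrier of vesicles and RNA, averaged 25.7 ± 0.668 FPKM in male and 25.3 ± 1.91 FPKM in female cultures. Kif13a (ENSRNOG00000001455), a carrier of endosomal cargo, read 16.7, 16.4, 18.5 and 16.4 FPKM in male and 30.1, 18.5, 17.9 and 20.5 FPKM in female cultures. Female 1 alone stood far above the rest, and the difference of -0.31 ± 0.15 was not called (adjusted p = 0.253) and came to -0.15 without female 1. Kif13b (ENSRNOG00000013089), which binds the scaffold protein Dlg1, stood lower at 2.90, 4.11, 2.87 and 3.13 FPKM in male and 4.91, 4.55, 3.66 and 4.93 FPKM in female libraries. Male 2 read above female 3, and the adjusted p was 0.185. Kif16b, a motor of early endosomes, averaged 1.07 ± 0.267 and 1.24 ± 0.531 FPKM.

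The conventional kinesin heavy chains, which carry mitochondria, vesicles and RNA, differed in level. None was called between the sexes, where 6.04% of all tested genes were. Kif5b (ENSRNOG00000017466), the form found in most cells, stood at 47.1, 70.9, 71.2 and 67.8 FPKM in male and 67.4, 55.8, 60.4 and 63.6 FPKM in female libraries, with male 1 far below the other male ones. Kif5c and Kif5a, the forms known from neurons, averaged 24.7 ± 3.54 and 7.33 ± 0.867 FPKM in male against 25.1 ± 2.49 and 6.73 ± 0.917 FPKM in female cultures. The sexes overlapped in all 3, with adjusted p from 0.694 to 0.919. Kif3a and Kif3b, whose products with the adaptor Kifap3 form the motor that builds cilia, averaged 19.7 ± 0.894 and 8.30 ± 0.842 FPKM in male against 20.2 ± 0.754 and 8.44 ± 0.509 FPKM in female cultures. Kif3a varied little among the libraries, with a coefficient of variation of 4.53% in male and 3.74% in female ones. Kif3c, a vesicle motor that pairs with Kif3a in neurons, averaged 26.8 ± 2.80 and 24.1 ± 1.01 FPKM (adjusted p = 0.421). The sexes overlapped in these 3 genes as well.

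The remaining tested rows were not called either. Kif2a (ENSRNOG00000014000) takes microtubules apart, as Kif2c does, and only the division used here counts it among the other rows. It averaged 55.8 ± 6.61 FPKM in male and 59.9 ± 5.68 FPKM in female cultures. Its difference of -0.10 ± 0.10 lay on the other side of 0 from that of Kif2c, with no test between them. Kif7, the motor of Hedgehog signalling at the tip of the cilium, averaged 2.48 ± 0.117 and 2.76 ± 0.357 FPKM. Kif24, which acts at centrioles and holds back cilia, averaged 1.47 ± 0.321 and 1.14 ± 0.229 FPKM, and Kif26a, a family member without motor activity, 2.40 ± 0.447 and 3.22 ± 0.821 FPKM. Kif1bp averaged 30.1 ± 0.816 and 31.6 ± 2.23 FPKM, and adjusted p for these 5 rows ran from 0.381 to 0.732. By role, 1 of 5 tested transport motors known from neurons (Kif1a, Kif5a, Kif5c, Kif3c and Kif21b) and none of 4 tested ciliary ones (Kif3a, Kif3b, Kif7 and Kif24) was called, with medians of -0.029 and -0.027. Among all tested genes 6.04% were called, and lists this short cannot be told apart from that share. RefSeq lists pseudogenes named after Kif11, Kif13a, Kif18b, Kif1c and Kif4a's relative Kif4b, and how reads shared with such copies were counted is not given in the sources used here.

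Summed over the 12 mitotic genes, FPKM came to 369, 387, 375 and 408 in male 1 to male 4, against 308, 309, 340 and 272 in female 1 to female 4. The sexes did not overlap. As a share of the FPKM of all 42 rows this was 46.5%, 44.9%, 43.4% and 45.1% in male and 35.4%, 37.7%, 42.3% and 34.8% in female libraries, so female 3 lay close to the male ones. The 30 other rows summed to 425 to 497 FPKM in male and 463 to 562 FPKM in female libraries, which overlapped. Within the female cultures the mitotic genes did not order the libraries alike. Female 3 was the highest female library for 5 of them (Kif18b, Kif20a, Kif22, Kif2c and Kifc1) and the lowest for 2 (Kif14 and Kif20b), while female 4 was the lowest for 7. Within the male cultures male 4 was the highest for 6 and male 2 for 5, and male 1 was the lowest for 6. Among the 19 other rows male 1 was the lowest male library for 10 and female 3 the lowest female library for 10, the same pair whose deviations correlated over all genes. Without both, the called members were Kif22, Kifc1 and Kif18b among the mitotic genes, and Kif21b and Kifc3 among the others. Calls rose over the whole table as well, from 680 to 880 of the 11263 genes.

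**Figure D4:**
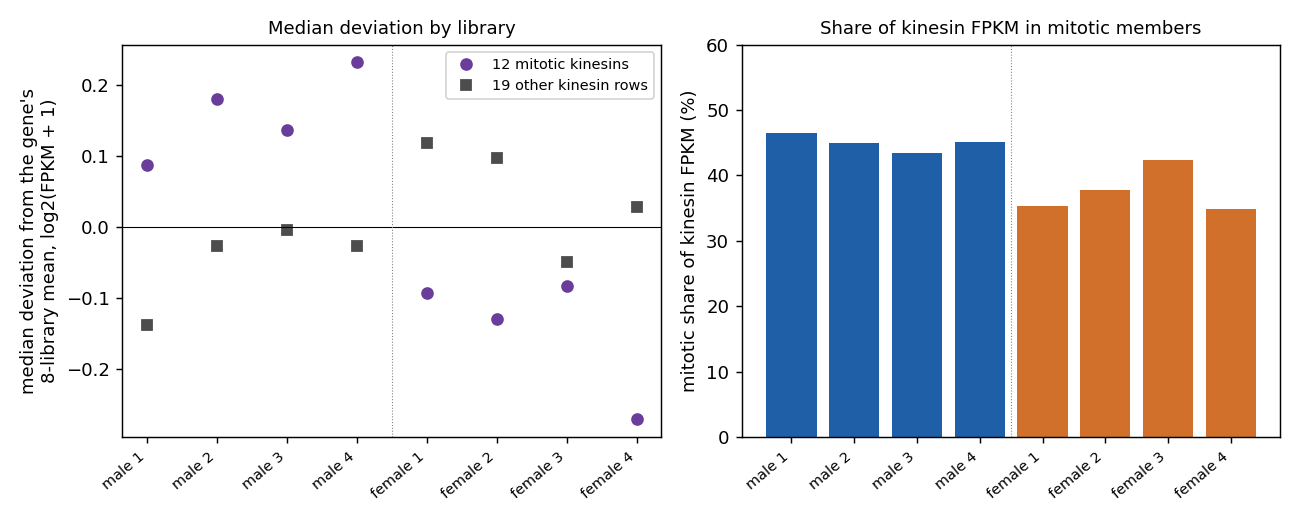
Left, the median over 12 mitotic genes and over 19 other rows of the deviation of each library from the gene's mean over 8 libraries, on the log2(FPKM + 1) scale; right, the mitotic genes' share of kinesin FPKM, with male libraries first. Mitotic medians run from 0.087 to 0.23 in male and from -0.27 to -0.084 in female libraries, and the shares from 43.4% to 46.5% and from 34.8% to 42.3%.

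A list of spindle and midzone proteins that work with the mitotic motors was read in the same way. Of 20 tested rows (21 rows for 20 symbols, as Spag5 has 2), 6 were higher in male cultures and none lower, against 3.14% of all tested genes called as higher. A positive difference was seen in 17 (49.3% of all tested genes) and an unadjusted p under 0.05 in 14 (21.2%), and the median was 0.28. The 3 negative ones were Ckap5, Numa1 and Cit, the citron kinase that binds Kif14, which averaged 6.38 ± 0.907 and 7.09 ± 0.857 FPKM (adjusted p = 0.626), and these 3 are named after their values were seen. Incenp and Aurkb, scaffold and kinase of the passenger complex that Kif20a carries, stood at 39.2 ± 0.533 and 74.5 ± 4.17 FPKM in male against 29.4 ± 2.49 and 53.1 ± 8.45 FPKM in female cultures (limma-trend adjusted p = 0.0133 and 0.0209). Prc1, which bundles the midzone microtubules on which Kif4a and Kif14 work, stood at 119.9 ± 3.74 and 94.5 ± 6.89 FPKM (adjusted p = 0.0140). Spag5, a spindle protein, stood at 17.7 ± 1.33 and 12.2 ± 1.84 FPKM in its higher row (adjusted p = 0.0292). Racgap1, the partner of Kif23 in centralspindlin and named here after its value was seen, missed the threshold at 60.7 ± 3.38 and 46.7 ± 7.22 FPKM (adjusted p = 0.0559). Cenpe, a kinesin under another symbol that carries chromosomes to the spindle equator, averaged 7.11 ± 1.01 and 5.67 ± 1.08 FPKM with overlap (adjusted p = 0.313). Stard9, also a kinesin by its motor domain, averaged 0.995 ± 0.120 and 1.68 ± 0.631 FPKM (adjusted p = 0.337). Among general markers of dividing cells, the mitotic kinase gene Cdk1 stood at 232 ± 6.88 and 165 ± 26.9 FPKM (adjusted p = 0.0146) and Mki67 at 5.23 ± 0.563 and 3.90 ± 1.23 FPKM (adjusted p = 0.282).

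Cargo adaptors of the transport kinesins showed no called difference in 18 tested rows, with 2 at an unadjusted p under 0.05 and a median of 0.012, where 6.04% of all tested genes were called and 21.2% had such a p. The light chain Klc1, which links the Kif5 motors to cargo, averaged 146.5 ± 7.36 FPKM in male and 136 ± 13.6 FPKM in female cultures, and Klc3 was listed at 0 in all. Klc1, Klc3 and Kifap3 are named for their roles and not for their p. The smallest p values belonged to Mapk8ip1, a scaffold that links kinesin to cargo (78.7 ± 5.80 and 68.2 ± 5.93 FPKM, limma-trend adjusted p = 0.181), and Rhot2, a mitochondrial anchor of the motor complex (13.6 ± 1.54 and 11.1 ± 0.734 FPKM, 0.189). The mitochondrial adaptor Trak1 and the light chain Klc2 followed, both with a higher female mean and adjusted p of 0.374 and 0.373. Kifap3 averaged 44.7 ± 1.498 and 43.7 ± 0.329 FPKM (adjusted p = 0.833).

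Markers of cell types differed between the same cultures, and their part in the kinesin differences was not tested. The shares over all tested genes were 2.89% called as lower in male cultures, 3.14% called as higher and 21.2% at an unadjusted p under 0.05. Of 12 tested microglia markers 9 were lower in male cultures and none higher (median -1.51), and their sum over 13 rows was 42.1 to 61.1 FPKM in male and 164 to 203 FPKM in female libraries. Of 9 OPC markers 5 were lower in male cultures (median -0.38), with sums of 2240 to 2371 FPKM in male and 2697 to 3037 FPKM in female libraries. Of 13 tested neuron markers 4 were higher in male cultures, with 8 differences positive and 5 negative (median 0.28). The 4 were Gad1, Gad2, Syt1 and Stmn2, named after their values were seen. Gad1 stood at 19.2 ± 1.77 FPKM in male and 3.93 ± 1.12 FPKM in female cultures. The sums of the neuron list overlapped at 368 to 407 FPKM in male and 338 to 465 FPKM in female libraries. The neuronal motor list summed to 118 to 150 FPKM in male and 132 to 168 FPKM in female libraries. Of 6 tested astrocyte markers none was called (2 at an unadjusted p under 0.05), with sums of 198 to 217 FPKM in male and 194 to 214 FPKM in female libraries. Of 8 tested oligodendrocyte markers 2 were lower in male cultures, while 4 differences were positive and 4 negative (median -0.025). Their sum was 550.1 to 638.5 FPKM in male and 670.2 to 808.8 FPKM in female libraries, without overlap. In that sum Mbp stood at 200 ± 11.6 FPKM in male and 200 ± 25.0 FPKM in female cultures. Cnp, named after its value was seen, stood at 268 ± 31.4 and 409 ± 35.8 FPKM. Ependymal markers, which would mark cells with motile cilia, summed to at most 1.70 FPKM in a male and 1.46 FPKM in a female library.

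**Figure D5:**
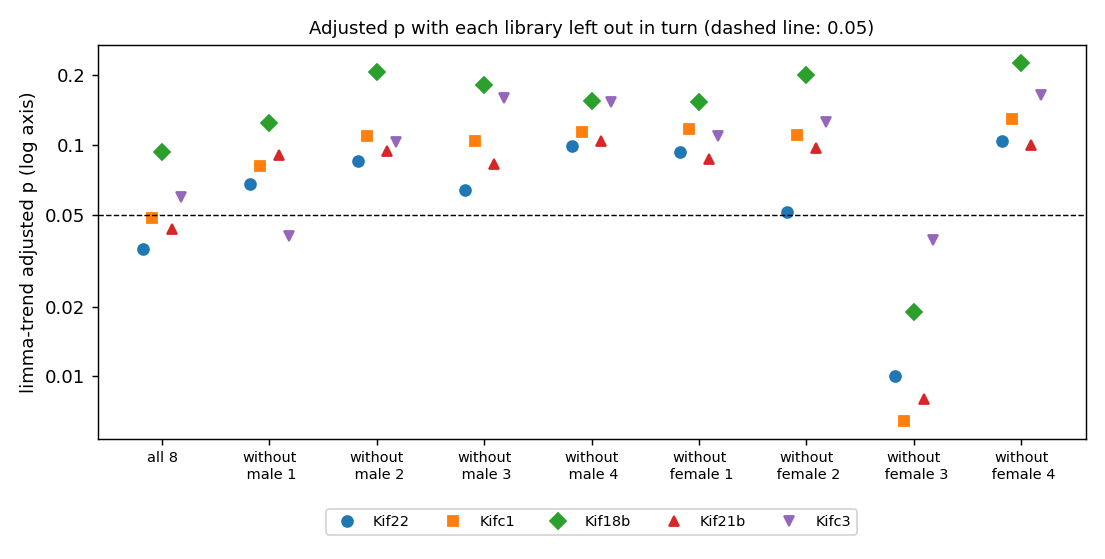
Adjusted p (log axis) of Kif22, Kifc1, Kif18b, Kif21b and Kifc3 with all 8 libraries and with each library left out in turn; the dashed line is 0.05. Kif22, Kifc1 and Kif21b lie under the line with all libraries and without female 3, where they reach 0.01004, 0.00643 and 0.00798, and over it when any of the other 7 is left out.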

How the data were processed

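RNA was measured in 8 OPC libraries, whose sex and number were taken from their titles. The authors deposited FPKM values, 1 per gene and library, per the file headers. The submitters' processing notes name Trimmomatic and FastQC. Libraries were made with a strand-specific kit per the labels; the aligner, the quantifier, the build and whether strand was used in counting: not given in the sources used here. These values hold no counts, so no interval from counts could be given. Depth relative to male 1 was read from the steps between low FPKM values. Values were taken as log2(FPKM + 1), genes that averaged 1 FPKM or more were kept, and limma (version 3.58.1 in R 4.3.3) was fitted with trend and robust moderation to all 11263 genes, with sex as the sole factor and Benjamini-Hochberg adjustment over all of them. The fit was tested on simulated data. Genes named are all kinesin rows, Cenpe, Stard9, Mki67, Cdk1, up to 4 partners per list with the smallest p, and defining cell type markers; others are marked. The members, the division and the lists were chosen with earlier results of these data known, so no list was tested as a set. Some symbols of the marker lists were not analysed here. Alternatives were other pseudocounts, filters, normalization, covariates, moderation and threshold, and libraries left out.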

Additional observations from a re-analysis of the deposited data

Results flagged for a closer look

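In 5 of 62 groups of 4 libraries (31 tested rows in each sex), the highest or lowest library stood apart from the other 3 by a larger share of the group's range than Dixon's critical value, and chance alone gives about 1 in 20 groups. Kif5b was lowest in male 1 at 47.1 FPKM, where the other male libraries read 67.8 to 71.2 FPKM. Kif1c was highest in male 2 at 26.7 FPKM against 25.3 to 25.4 FPKM, and Kif13a highest in male 3 at 18.5 FPKM against 16.4 to 16.7 FPKM. Among female libraries Kif23 was lowest in female 4 at 12.5 FPKM against 17.5 to 18.5 FPKM, and Kif16b highest in female 2 at 2.04 FPKM against 0.938 to 1.01 FPKM. None of these rows was called between the sexes.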

How the results depend on the processing

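The median difference kept its sign in all 18 alternatives, at 0.24 to 0.38 for the mitotic genes and -0.12 to -0.030 for the other rows, while the calls did not keep. With each library left out in turn, the mitotic genes called as higher in male cultures numbered 0 to 3, the other rows called as lower 0 to 2, and all genes called 298 to 803. The counts for mitotic and other rows were 0 and 0 with no filter on low values, 0 and 0 with the replicate block (9 mitotic and 3 other rows at an unadjusted p under 0.05), 1 (Kif20b) and 0 with relative depth as a covariate, and 5 and 2 at an adjusted p threshold of 0.1. Only Kif22 of the mitotic genes was called after quantile normalization and without robust moderation, which is 1 gene in each. A mean of at least 5 FPKM gave 2 other rows, as did leaving out male 1 and female 3 together. All genes called numbered 397 with the replicate block, 367 with relative depth and 1149 at the threshold of 0.1. The cause was not tested. The labels do not say whether equal numbers mark paired male and female libraries, and this was examined by correlation only, without a p-value. Deviations of same-numbered male and female libraries correlated at -0.085 to 0.077 over genes. Those of differently numbered ones correlated at -0.119 (male 4 and female 3) to 0.242 (male 1 and female 3). The range of the same-numbered libraries lay within that of the differently numbered ones. Each Kif call was lost under the block. Differences near 0 turned sign with 1 library left out, ranging over -0.0011 to 0.24 for Kif14, -0.16 to 0.058 for Kif16b, -0.0073 to 0.068 for Kif1c, -0.069 to 0.028 for Kif3b, -0.015 to 0.18 for Kif5b and -0.092 to 0.069 for Kif5c. Kif3b stood at 0.021 with relative depth and 0.022 without male 1 and female 3, and Kif5c at 0.033 and 0.032. Low rows rest on few fragments in the shallow libraries, of which female 1 is the shallowest.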

Other observations

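Kinesin rows below the filter were not tested, and their values are given as levels. Kif17, a motor of dendrites and cilia, read 0.456, 0, 0.223 and 0.512 FPKM in the male libraries in order and 0.751, 0.466, 0.640 and 0.642 FPKM in the female ones. Kif27, which is related to Kif7, read 0.304 to 0.833 FPKM in male and 0.526 to 1.26 FPKM in female libraries. Kifc2, a motor towards minus ends known from neurons, read 1.86, 1.48, 0.840 and 0.573 FPKM in male and 0, 0.182, 1.57 and 1.07 FPKM in female libraries. Kif26b read 0.1004 to 0.249 FPKM in male and 0.104 to 0.457 FPKM in female libraries. Kif19, which trims cilia, was above 0 in male 1 only among male libraries, at 0.122 FPKM, and in all 4 female ones, at 0.0620 to 0.400 FPKM. Kif6 and Kif9, known from motile cilia, stood at no more than 0.163 and 0.0833 FPKM in male and 0.246 and 0.274 FPKM in female libraries.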
